A study of Bos taurus with 6 samples.

Results

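Maternal effect genes are transcribed in the oocyte, and their products are used by the egg and the early embryo before the embryonic genome is active. A list of 8 such genes was taken by symbol, whatever their values: NLRP5, OOEP, PADI6, TLE6, ZAR1, NPM2, KPNA7 and DPPA3. They are 8 of the 23704 genes that could be named in the deposited transcript tables, and all 8 passed the count filter of the test. The T16 group was made of 3 pools of bovine primordial follicles (PMF) after 16 h of culture, and the T0 group of 3 pools taken after collection (0 h). In both groups the follicles were mechanically isolated and held the oocyte with its pre-granulosa cells. The study's methods describe PMF from abattoir ovaries of young Holstein Friesian dairy cows, sorted with mesh strainers, picked by shape, pooled, and left to recover briefly in medium with insulin, transferrin, selenite and FSH before they were stored. The conditions of the 16 h culture are not given in the sources used here. The series calls the replicates biological, but whether each pool came from other animals is not stated, so the p-values measure the spread between these pools.

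NLRP5, OOEP, PADI6 and TLE6 encode parts of the subcortical maternal complex, a protein assembly under the egg membrane that, in the mouse, is needed for the first cleavages of the embryo. ZAR1 is an RNA-binding protein that stores maternal mRNA in growing oocytes, NPM2 is a histone chaperone known from frog eggs for the remodelling of sperm chromatin, KPNA7 is an oocyte form of importin alpha, which carries proteins into the nucleus, and DPPA3 protects maternal DNA methylation in the zygote. In the mouse, several of these genes become active as the oocyte begins to grow, so a primordial follicle is an early point at which to measure them.

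The libraries held from 25761986 to 36703016 estimated counts at T16 and from 22174653 to 30212698 at T0. They differed widely in their oocyte RNA, read as the summed TPM (a length-corrected share of all transcripts) of 18 other oocyte genes such as ZP3, FIGLA, BMP15 and DDX4. All 18 were detected in every library except TDRD9, at 0 in T16 replicate 2. This sum was 2598, 90.1 and 912 TPM in T16 replicates 1, 2 and 3, against 612, 2396 and 3500 TPM in T0 replicates 1, 2 and 3. T16 replicate 2 and T0 replicate 1 had the lowest sum of their groups and are called poor in oocyte RNA. Fold changes, ratios and likeness are also given without them, an alternative chosen after their levels were seen. T0 replicate 1 was not far from T16 replicate 3, which was kept. The libraries left held 2598 and 912 TPM at T16, against 2396 and 3500 TPM at T0, so they still differed in oocyte RNA. In T16 replicate 2 the receptor gene KIT, at 39.5 TPM, held 43.8% of the sum, against 1.21% to 9.68% in the T0 libraries and 1.50% and 3.26% in the other T16 libraries. The 14 granulosa markers summed to 942 to 9007 TPM at T16 and 1463 to 10120 TPM at T0, highest in the 2 oocyte-poor libraries, where all 14 were detected and the keratins KRT8 and KRT18 made up 7627 and 8948 TPM. The other 12 summed to 503.8, 1380 and 438 TPM in T16 replicates 1, 2 and 3, against 1176, 2055 and 982 TPM in T0 replicates 1, 2 and 3, and NR5A2, LGR5 and FSHR were at 0 in 1 library each. On the scale of TMM-normalized CPM, 5 of the 14 were below every T0 library in every T16 library, where 10.6% of all genes were. In edgeR none of the 14 was called. At an unadjusted p below 0.05 in edgeR, 4 were lower at T16, FOXL2, WNT6, GATM and FSHR, where 5.14% of all genes were. FST alone was higher, where 8.61% of all genes were. The log2 fold changes of FOXL2, WNT6, GATM and FSHR were -2.30, -3.91, -3.72 and -4.09, with edgeR adjusted p from 0.128 to 0.306, beside -2.39 for PADI6 and -2.54 for TLE6. The 8 stroma markers summed to 276 to 1734 TPM at T16 and 1184 to 2940 TPM at T0, with TCF21 at 0 in 1 library of each group. The 8 smooth muscle and pericyte markers summed to 47.1 to 314 TPM at T16 and 125 to 499 TPM at T0, and ACTA2 and MYH11 were at 0 in T16 replicate 1. The 7 endothelium markers summed to 15.03 to 39.0 TPM at T16 and 22.5 to 392 TPM at T0, and EMCN was at 0 in the 3 T16 libraries and in T0 replicate 3. The 8 immune markers summed to 4.08 to 58.5 TPM at T16 and 9.66 to 49.97 TPM at T0, and CD2 was at 0 in all 6 libraries. The part of these cell types in the values below was not tested. In such pools, fewer oocytes and less RNA per oocyte cannot be told apart.

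All 8 maternal effect genes were detected in every library, and their summed level was lowest in the libraries that were poor in oocyte RNA. Their summed level was 1105, 45.5 and 434 TPM in T16 replicates 1, 2 and 3, against 291, 1479 and 1998 TPM in T0 replicates 1, 2 and 3. The groups overlapped. PADI6 did not follow the oocyte sum in each library, since T16 replicate 1, with 2598 TPM of oocyte genes, had 5.80 TPM of PADI6 and T0 replicate 1, with 612 TPM, had 7.44 TPM. By mean TPM the order at T16 was NPM2, OOEP, ZAR1, KPNA7, DPPA3, PADI6, NLRP5 and TLE6. At T0 it was NPM2, OOEP, ZAR1, KPNA7, PADI6, DPPA3, TLE6 and NLRP5. NPM2, OOEP and ZAR1 held the first, the second and the third place in all 6 libraries, and KPNA7 the fourth in 5 of 6. PADI6 and DPPA3 changed places within T0 and within T16, so their order was not fixed beyond the spread between pools.

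**Figure D1:**
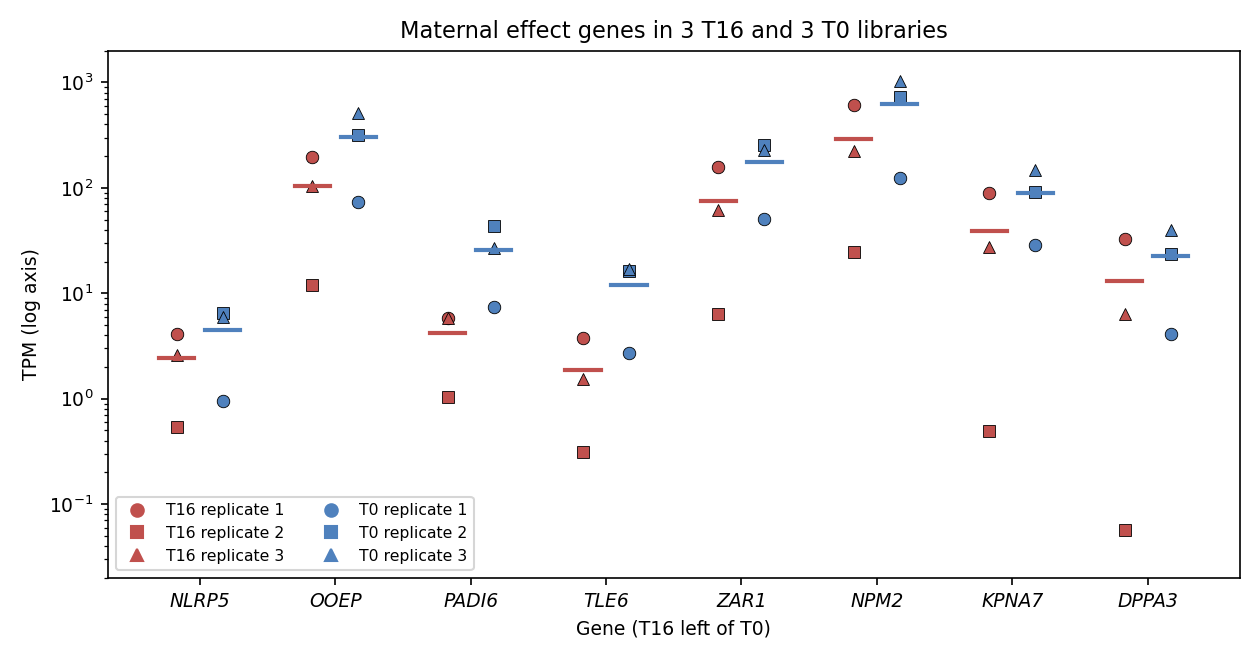
TPM (log axis) of the 8 maternal effect genes, with T16 (red) left of T0 (blue) for each gene; each point is a library, its shape gives the replicate number, and each line is the mean of 3 libraries. T16 replicate 2 was the lowest of the 6 libraries for every gene, and for PADI6 every T16 library lay below every T0 library.

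In edgeR, no maternal effect gene differed between T16 and T0 at a Benjamini-Hochberg adjusted p below 0.05, and 0 of the 8 were called by DESeq2. Across all 14639 genes tested, edgeR called 1 gene lower at T16 (0.00683%) and DESeq2 called 433 lower (2.96%). At an unadjusted p below 0.05 in edgeR, 2 of the 8 were lower at T16, PADI6 and TLE6, where 5.14% of all genes were. The fitted log2 fold change was below 0 for all 8, where 53.4% of all genes were below 0. The median of the 8 was -1.08, against -0.08 over all genes tested and -0.69 over the 18 other oocyte genes, 16 of which were below 0. The 8 genes were read in the same libraries and were all lowest in T16 replicate 2, so these signs are not 8 separate observations. The mean log2 CPM (a library-scaled count) of the 18 oocyte genes was then entered in the edgeR fit as a covariate. In that fit 7 of the 8 were below 0, with a median of -0.42, against -0.08 over all genes tested. The 18 genes themselves had a median of 0.02, near 0 by construction, since their mean is the covariate. Without the 2 oocyte-poor libraries all 8 were below 0, and again none was called, though the libraries left still differed in oocyte RNA.

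**Figure D2:**
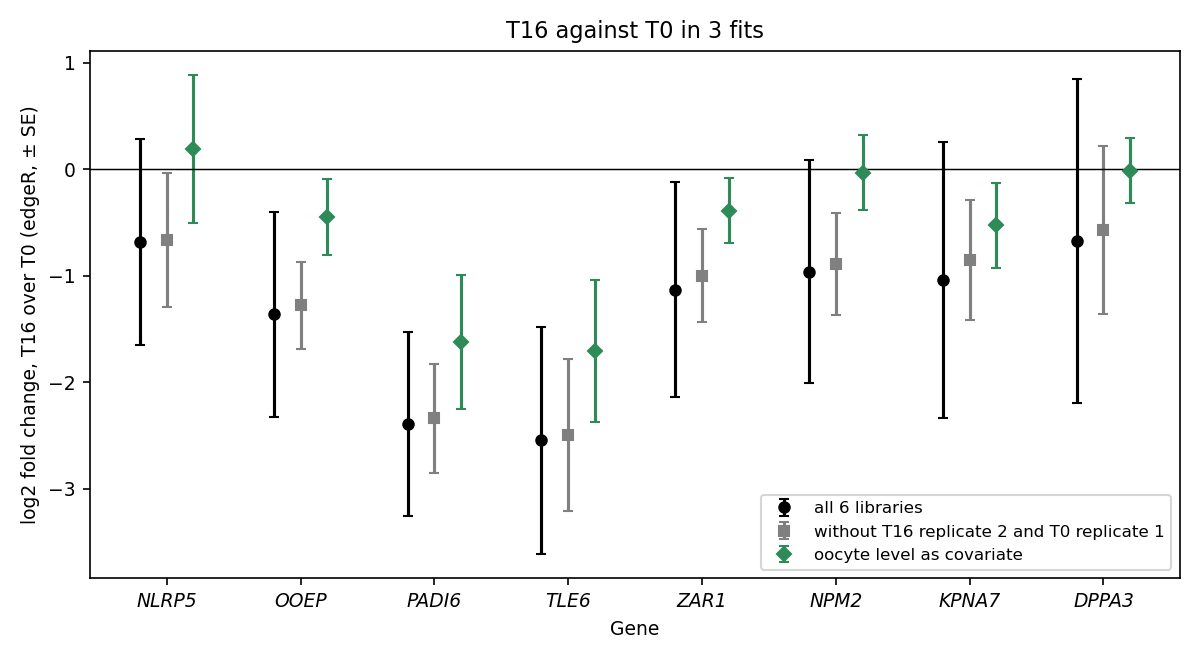
Log2 fold change of T16 over T0 from edgeR, with bars of 1 SE, for each gene in 3 fits: all 6 libraries (black), without T16 replicate 2 and T0 replicate 1 (grey), and all 6 libraries with the oocyte level as a covariate (green). PADI6 and TLE6 lie lowest in all 3 fits, and NLRP5 lies at 0.19 with the covariate and below 0 in the other fits.

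PADI6 and TLE6 had the lowest fold changes of the subcortical maternal complex, and NLRP5 the one nearest to 0. PADI6, an enzyme of the arginine deiminase family that in the mouse is required to form the cytoplasmic lattices of the egg, had 5.80, 1.04 and 5.86 TPM in T16 replicates 1, 2 and 3. It had 7.44, 43.4 and 27.0 TPM in T0 replicates 1, 2 and 3. Every T16 library was below every T0 library, a pattern that 10.6% of all genes tested showed on the scale of TMM-normalized CPM, and T0 replicate 1 came close to the T16 libraries. The means were 4.24 TPM (SD 2.76, n = 3) at T16 and 25.9 TPM (SD 18.0, n = 3) at T0. In edgeR the log2 fold change of PADI6 was -2.39 (SE 0.86, adjusted p = 0.277, unadjusted p = 0.0267), and in DESeq2 the adjusted p was 0.0530. It was -2.34 (SE 0.51, edgeR adjusted p = 0.134) without the 2 oocyte-poor libraries and -1.62 (SE 0.63, edgeR adjusted p = 0.208) with the oocyte covariate.

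TLE6, a co-repressor relative that joins the subcortical complex, had 3.74, 0.315 and 1.53 TPM in T16 replicates 1, 2 and 3, against 2.74, 16.4 and 17.02 TPM in T0 replicates 1, 2 and 3. The groups overlapped only through T0 replicate 1, which was below T16 replicate 1. T16 replicate 2 held 8 estimated counts of TLE6 in all. The log2 fold change was -2.54 (SE 1.07, edgeR adjusted p = 0.354, unadjusted p = 0.0473). Without the 2 oocyte-poor libraries it was -2.49 (SE 0.72, edgeR adjusted p = 0.194), and with the oocyte covariate it was -1.70 (SE 0.67, edgeR adjusted p = 0.213).

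OOEP, the KH domain-like protein of the complex, was its most abundant member, with 195, 12.1 and 103 TPM in T16 replicates 1, 2 and 3, against 72.7, 321 and 510 TPM in T0 replicates 1, 2 and 3. The T16 libraries spanned a 16.1-fold range and the T0 libraries a 7.01-fold range, and the groups overlapped. The log2 fold change was -1.36 (SE 0.96, edgeR adjusted p = 0.616). Without the 2 oocyte-poor libraries it was -1.28 (SE 0.41, unadjusted p = 0.0248, edgeR adjusted p = 0.227), and with the covariate it was -0.44 (SE 0.36, edgeR adjusted p = 0.544).

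NLRP5, also called MATER, is the NLR family protein of the complex. It had 4.14, 0.539 and 2.62 TPM in T16 replicates 1, 2 and 3, against 0.950, 6.47 and 5.95 TPM in T0 replicates 1, 2 and 3, where it was the least abundant of the 8. The groups overlapped, and the 27 estimated counts of T16 replicate 2 were its smallest number. The log2 fold change was -0.68 (SE 0.97, edgeR adjusted p = 0.831). It was -0.66 (SE 0.63, edgeR adjusted p = 0.654) without the 2 oocyte-poor libraries and 0.19 (SE 0.70, edgeR adjusted p = 0.913) with the oocyte covariate.

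ZAR1 had 157, 6.34 and 62.4 TPM in T16 replicates 1, 2 and 3, against 50.3, 253 and 229 TPM in T0 replicates 1, 2 and 3. The groups overlapped, and the lowest T16 value was that of the library poorest in oocyte RNA. The log2 fold change was -1.13 (SE 1.01, edgeR adjusted p = 0.705), and without the 2 oocyte-poor libraries it was -1.0 (SE 0.44, edgeR adjusted p = 0.344). With the oocyte covariate it was -0.39 (SE 0.31, edgeR adjusted p = 0.534).

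NPM2 was the most abundant maternal effect gene in every library. It had 617, 24.6 and 224 TPM in T16 replicates 1, 2 and 3, against 124, 725 and 1022 TPM in T0 replicates 1, 2 and 3. The groups overlapped widely, and the log2 fold change was -0.96 (SE 1.05, edgeR adjusted p = 0.766). It was -0.89 (SE 0.48, edgeR adjusted p = 0.425) without the 2 oocyte-poor libraries and -0.03 (SE 0.35, edgeR adjusted p = 0.975) with the covariate.

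KPNA7 and DPPA3 had the widest spread, which came from T16 replicate 2. KPNA7 had 90.1, 0.495 and 27.6 TPM in T16 replicates 1, 2 and 3, against 28.7, 90.7 and 147 TPM in T0 replicates 1, 2 and 3. DPPA3 had 32.5, 0.0574 and 6.30 TPM in T16 replicates 1, 2 and 3, against 4.14, 23.6 and 39.7 TPM in T0 replicates 1, 2 and 3. Both overlapped between the groups, and T16 replicate 2 held 12 estimated counts of KPNA7 and 1 of DPPA3. The log2 fold change was -1.04 for KPNA7 (SE 1.298, edgeR adjusted p = 0.799) and -0.67 for DPPA3 (SE 1.52, edgeR adjusted p = 0.899). With the covariate, KPNA7 was at -0.53 (SE 0.40, edgeR adjusted p = 0.517) and DPPA3 at -0.01 (SE 0.30, edgeR adjusted p = 0.988). Without the 2 oocyte-poor libraries KPNA7 was at -0.85 (SE 0.56, edgeR adjusted p = 0.512) and DPPA3 at -0.57 (SE 0.79, edgeR adjusted p = 0.770).

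Because the libraries differed in oocyte RNA, the genes were also read as a percent of the summed TPM of the 18 other oocyte genes, as a description with no test. The 8 genes together came to 42.5%, 50.5% and 47.6% of that sum in T16 replicates 1, 2 and 3, against 47.5%, 61.7% and 57.1% in T0 replicates 1, 2 and 3. On the log2 scale this ratio had an SD of 0.20 over the 6 libraries, where the summed TPM itself had an SD of 2.02, and without the 2 oocyte-poor libraries the SDs were 0.24 and 0.95. T16 minus T0 was -0.24, with an SD of 0.13 at T16 and 0.19 at T0. Without KIT in the sum, a change made after its level in T16 replicate 2 was seen, the ratio was 43.2%, 90.0% and 49.2% at T16, against 52.5%, 62.9% and 57.8% at T0, and T16 minus T0 was 0.0007. It was -0.39 with that sum, and -0.40 with KIT in it, without the 2 oocyte-poor libraries. With KIT in the sum it was -0.29 without T16 replicate 2 alone and -0.34 without T0 replicate 1 alone.

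TLE6 came to 0.144%, 0.350% and 0.167% of the oocyte sum at T16, against 0.448%, 0.685% and 0.486% at T0, and every T16 library was below every T0 library. KPNA7 came to 3.47%, 0.549% and 3.03% at T16, against 4.68%, 3.79% and 4.21% at T0, and its groups did not overlap either. These were 2 of the 8 genes, where 0.868% of all genes tested lay below in this way. Without KIT in the sum the groups of TLE6 overlapped through T16 replicate 2, at 0.623% against 0.492% to 0.698% at T0. Those of KPNA7 did not, where 0.437% of all genes lay below. Genes not confined to oocytes tended to have high ratios in T16 replicate 2, where the sum was lowest. HSF1, for one, had 162 TPM there beside an oocyte sum of 90.1 TPM. The shares over all genes thus do not tell how rare the pattern is among oocyte genes. The T16 minus T0 difference of TLE6 was -1.23 on the log2 scale, -1.84 without the 2 oocyte-poor libraries and -0.55 with a pseudocount of 1 TPM in place of 0.1. That of KPNA7 was -1.14, -0.30 without those libraries and -0.71 with the larger pseudocount. PADI6 came to 0.223%, 1.16% and 0.643% at T16, against 1.21%, 1.81% and 0.772% at T0, a log2 difference of -1.07. It was -1.62 without the 2 libraries, -0.40 without T16 replicate 1 and -0.74 with the larger pseudocount. The other genes lay from -0.78 for DPPA3 to 0.69 for NLRP5, and for both of them the difference was within the spread between T16 libraries. Without the 2 libraries, NLRP5 lay at 0.02 and DPPA3 at -0.18, and with the larger pseudocount DPPA3 lay at 0.09. Without T16 replicate 2 alone, KPNA7 lay at -0.38, NLRP5 at 0.13 and DPPA3 at 0.03.

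NPM2, OOEP and ZAR1 held the 3 largest shares of the maternal effect RNA in every library. NPM2 held 55.8%, 54.1% and 51.7% of the summed TPM of the 8 genes in T16 replicates 1, 2 and 3, against 42.5%, 49.0% and 51.1% in T0 replicates 1, 2 and 3. Its T16 shares were all above its T0 shares, though T16 replicate 3 and T0 replicate 3 were close. Over all genes tested, 6.21% had a higher ratio to this sum in every T16 library. OOEP held 17.6% to 26.6% at T16 and 21.7% to 25.5% at T0. ZAR1 held 13.9% to 14.4% at T16 and 11.5% to 17.3% at T0. These 3 genes held most of the maternal effect RNA in each library, and the shares of OOEP and ZAR1 overlapped between the groups. TLE6 held 0.338%, 0.692% and 0.351% at T16, against 0.943%, 1.11% and 0.852% at T0, and every T16 share was below every T0 share. Of all genes tested, 0.505% had a lower ratio to this sum in every T16 library. This sum too was lowest in T16 replicate 2, so that share does not tell how rare the pattern is among oocyte genes. KPNA7 held 8.15%, 1.09% and 6.36% at T16, against 9.86%, 6.13% and 7.38% at T0, and overlapped between the groups. DPPA3 held 2.94%, 0.126% and 1.45% at T16, against 1.42%, 1.59% and 1.99% at T0. The lowest share of both was in T16 replicate 2.

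**Figure D3:**
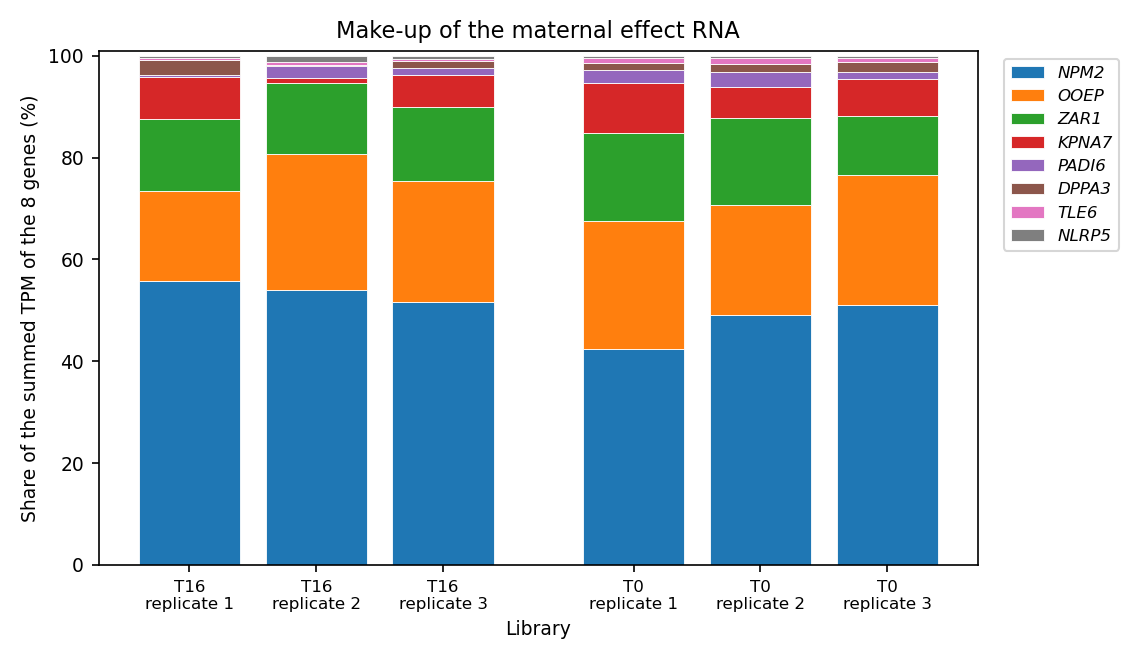
Share of each gene in the summed TPM of the 8 maternal effect genes, in percent, with 1 bar for each library and the 3 T16 libraries left of the 3 T0 libraries. NPM2, OOEP and ZAR1 fill most of every bar, and NPM2 holds 51.7% to 55.8% at T16 and 42.5% to 51.1% at T0.

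Within the subcortical maternal complex, the level of NLRP5 relative to its partners did not overlap between the groups. NLRP5 was singled out after its values were seen, and these ratios are a description. The TPM of NLRP5 was 1.11, 1.71 and 1.72 times that of TLE6 in T16 replicates 1, 2 and 3, against 0.346, 0.394 and 0.350 times in T0 replicates 1, 2 and 3. So NLRP5 was above TLE6 in each T16 library and below it in each T0 library, the oocyte-poor libraries included. The ratio rests on few estimated counts there, 27 of NLRP5 and 8 of TLE6 in T16 replicate 2, and 53 and 81 in T0 replicate 1. Relative to PADI6, NLRP5 stood at 0.713, 0.515 and 0.447 at T16, against 0.128, 0.149 and 0.220 at T0. Relative to OOEP it stood at 0.0213, 0.0444 and 0.0253 at T16, against 0.0131, 0.0202 and 0.0117 at T0, with the nearest libraries of the 2 groups close. Among the 28 pairs that the 8 genes form, 4 did not overlap between the groups, and all 4 had NLRP5 on top, over OOEP, PADI6, TLE6 and ZAR1. The ratio to ZAR1 was all but tied between the nearest libraries, at 0.0263, 0.0849 and 0.0420 at T16, against 0.0189, 0.0256 and 0.0259 at T0. Over all other genes tested, the ratio of NLRP5 to the gene was higher in every T16 library for 2.26%. NLRP5 was lowest in T16 replicate 2, so its ratio to genes not confined to oocytes tended to be low there. That share thus does not tell how rare the pattern is among oocyte genes. The pairs that varied least over the 6 libraries were OOEP with NPM2 (SD 0.30 on the log2 scale), ZAR1 with NPM2 (SD 0.32), OOEP with ZAR1 (SD 0.33), KPNA7 with DPPA3 (SD 0.42) and PADI6 with TLE6 (SD 0.49). NLRP5 with KPNA7 varied most, with an SD of 1.83, which was 0.60 without T16 replicate 2. Without both oocyte-poor libraries, NPM2 with KPNA7 varied least (SD 0.13) and PADI6 with DPPA3 most (SD 1.40).

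**Figure D4:**
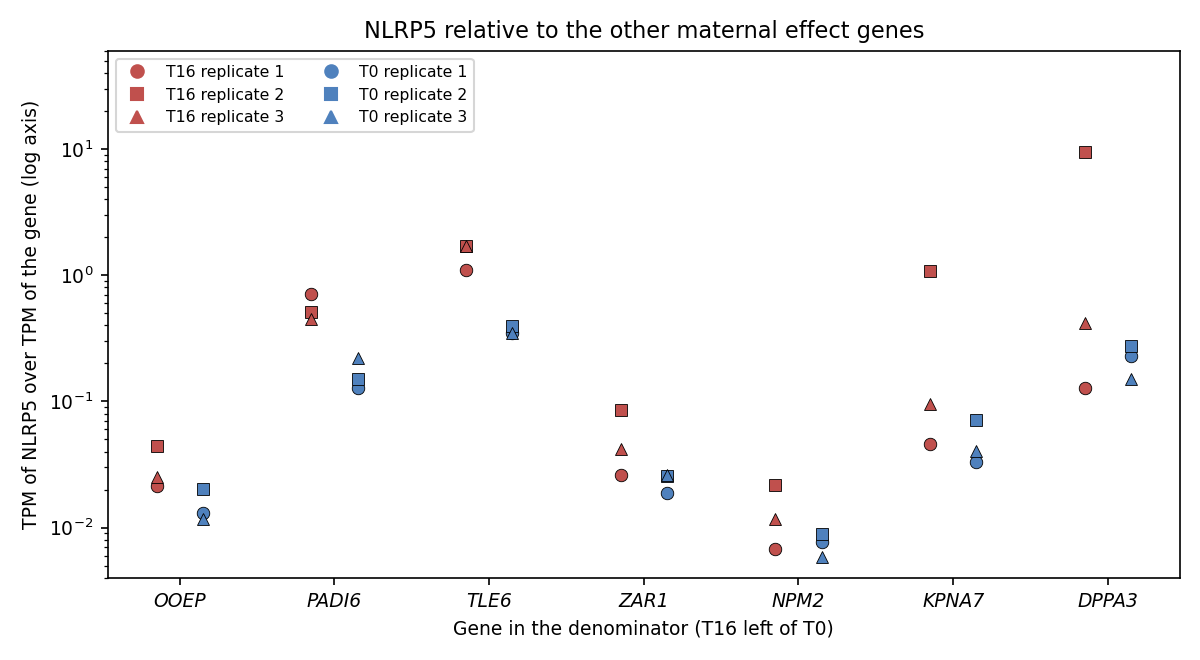
TPM of NLRP5 divided by the TPM of each other maternal effect gene (log axis), with T16 (red) left of T0 (blue); each point is a library and its shape gives the replicate number. The T16 points lie above the T0 points for OOEP, PADI6, TLE6 and ZAR1, and T16 replicate 2 lies far above the rest for KPNA7 and DPPA3.

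The reads of ZAR1 were divided among 3 RefSeq transcripts, and the shares of the longest and the shortest did not overlap between the groups. This is a description with no test, and shares within 1 gene are not separate observations. The longest, NM_001076203 of 1478 bases, held 52.2%, 33.8% and 54.0% of the estimated counts of ZAR1 in T16 replicates 1, 2 and 3. It held 66.6%, 63.3% and 63.2% in T0 replicates 1, 2 and 3, so every T16 library was below every T0 library. The shortest, XM_024993376 of 1124 bases, held 12.2%, 46.0% and 12.2% at T16, against 4.83%, 6.32% and 6.65% at T0, and every T16 library was above every T0 library. The third, XM_024993375 of 1199 bases, held 20.2% to 35.6% at T16 and 28.6% to 30.4% at T0. Over 15988 transcripts with a mean share of at least 5% in genes with 2 or more, 7.0% lay below and 6.63% above in this way. T16 replicate 2 held 100 estimated counts of ZAR1, and the shares of the other T16 libraries also lay outside the T0 range. Salmon assigns reads that several transcripts share by a model, and the transcripts were not measured separately.

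**Figure D5:**
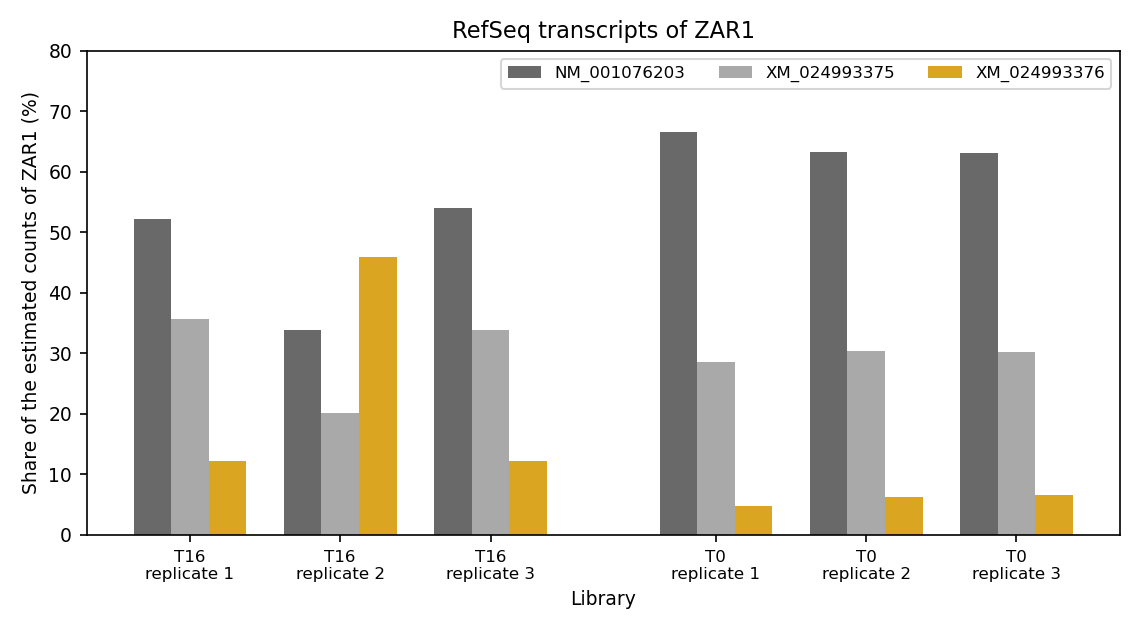
Share of the estimated counts of ZAR1 held by each of its 3 RefSeq transcripts, in percent, with the 3 T16 libraries left of the 3 T0 libraries. The share of XM_024993376 is 12.2% to 46.0% at T16 and 4.83% to 6.65% at T0.

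NPM2 was read mostly from 1 of its 3 transcripts, which held 92.6% (SD 1.69, n = 3) of its counts at T16 and 90.5% (SD 3.49, n = 3) at T0. NLRP5 (NM_001007814, 3542 bases), OOEP (NM_001077869, 708 bases), PADI6 (XM_002685797, 2425 bases) and KPNA7 (NM_001163947, 1804 bases) had 1 transcript each. TLE6 had 7, and its few counts were spread over them in a different way in each library, so its transcripts were not compared. DPPA3 had 2, and the 1589-base transcript held its counts in 5 of the 6 libraries, at 99.4% or more.

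Other genes of the same roles were read from lists. In edgeR, 0 of the 27 tested of 37 listed other maternal effect and oocyte NLRP genes passed the adjusted threshold, with a median log2 fold change of -0.08, where all genes tested also had -0.08. At an unadjusted p below 0.05, 1 was lower (5.14% of all genes) and 3 were higher (8.61% of all genes) at T16, and they are named here after their values were seen. The lower one was UHRF1, which guides maintenance of DNA methylation, with 28.5 TPM (SD 2.25, n = 3) at T16 and 64.05 TPM (SD 3.41, n = 3) at T0. Its log2 fold change was -1.05 (SE 0.29, edgeR adjusted p = 0.169). The higher ones were AGO2 of the RNA silencing complex at 1.74, UBE2A at 1.04 and EED of the Polycomb complex at 0.87, with edgeR adjusted p from 0.107 to 0.261. These genes did not fall with the oocyte RNA. In T16 replicate 2, with an oocyte sum of 90.1 TPM, UHRF1, AGO2, UBE2A and EED had 30.4, 64.4, 85.35 and 74.75 TPM. The oocyte gene NLRP14 averaged 64.6 TPM (SD 93.0, n = 3) at T16 and 70.4 TPM (SD 45.2, n = 3) at T0. The abundant genes of the list, UCHL1, HSF1 and TRIM28, are not confined to oocytes, and their log2 fold changes were -0.27, 0.10 and -0.08.

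Among the 17 genes of maternal mRNA storage and decay, none passed the adjusted edgeR threshold. Their median log2 fold change was -0.56, against -0.08 over all genes tested, and 11 were below 0, where 53.4% of all genes were. At an unadjusted p below 0.05 in edgeR, 2 were higher at T16, CNOT7 and CPEB4, where 8.61% of all genes were. CNOT7, a deadenylase of the CCR4-NOT complex, averaged 256 TPM (SD 46.2, n = 3) at T16 and 124 TPM (SD 16.1, n = 3) at T0, a log2 fold change of 1.15 (SE 0.30, edgeR adjusted p = 0.151). The storage factor CPEB1 averaged 70.8 TPM (SD 72.3, n = 3) at T16 and 184 TPM (SD 119, n = 3) at T0. MOS, the kinase that is translated from stored mRNA in maturation, averaged 99.2 TPM (SD 82.7, n = 3) at T16 and 247 TPM (SD 142, n = 3) at T0. The log2 fold changes of CPEB1 and MOS were -1.24 and -1.13, with edgeR adjusted p of 0.615 and 0.672.

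The relatives of the 8 genes by family lay mostly on the other side of 0. Abundant relatives such as KPNA1 and NPM1 did not fall with the oocyte RNA. In T16 replicate 2 they had 122 and 703 TPM, while ZAR1L was at 0. The part of other cells in this contrast was not tested. Of 22 listed, 16 were tested, and their median log2 fold change was 0.44. It was below 0 for 4 of them (KPNA5, TLE2, PADI2 and ZAR1L), where 53.4% of all genes were below 0. None passed the adjusted edgeR threshold. At an unadjusted p below 0.05 in edgeR, 4 were higher at T16, NPM1, KPNA1, KPNA3 and TLE3, where 8.61% of all genes were. For 5 of the 16, every T16 library was above every T0 library in TMM-normalized CPM, where 13.2% of all genes were. In TPM this held for 4, KPNA1, KPNA3, KPNA4 and NPM1. NPM1, the nucleolar relative of NPM2, averaged 820 TPM (SD 156, n = 3) at T16 and 447 TPM (SD 67.1, n = 3) at T0, a log2 fold change of 0.97 (SE 0.34, edgeR adjusted p = 0.260). KPNA1, an importin alpha of many tissues, averaged 110 TPM (SD 30.9, n = 3) at T16 and 55.8 TPM (SD 11.1, n = 3) at T0, a log2 fold change of 1.01 (SE 0.34, edgeR adjusted p = 0.245). KPNA2 was the most abundant importin alpha, at 413 TPM (SD 141, n = 3) at T16 and 411 TPM (SD 118, n = 3) at T0. ZAR1L, the oocyte relative of ZAR1, was lowest in the same libraries as the 8 genes, at 29.4, 0 and 12.9 TPM in T16 replicates 1, 2 and 3, against 5.65, 55.6 and 57.5 TPM in T0 replicates 1, 2 and 3. PADI2, the most abundant relative of PADI6, stayed below 1 TPM in every library.

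Likeness of pattern was measured as the SD, over the 6 libraries, of the log2 difference between a gene and the mean of the 8, among 10066 genes with a mean of at least 5 TPM. The points are the same 6 libraries for every gene, and these differ widely in oocyte RNA, so the measure is a description. The nearest gene was PLD6 (SD 0.18), an enzyme of the piRNA pathway, followed by LOC112444603 (SD 0.22), TDRD10 (SD 0.23), CNBD2 (SD 0.24) and OSR2 (SD 0.24), where the median over all these genes was 2.24. For single genes, OOEP was nearest to TCL1A (SD 0.13), TLE6 to DAPL1 (SD 0.13), NPM2 to KRTCAP3 (SD 0.15), KPNA7 to EYA1 (SD 0.18) and NLRP5 to KLC3 (SD 0.18). ZAR1 was nearest to MAPT (SD 0.21), PADI6 to HS6ST3 (SD 0.26) and DPPA3 to RSPO2 (SD 0.28). These ranks depend on the 2 oocyte-poor libraries. Without them PLD6 was the 6th nearest to the mean of the 8 and KLC3 the 258th nearest to NLRP5, while TCL1A and DAPL1 were each the 3rd nearest to their gene. Over all 6 libraries PADI6 was the 6th nearest gene to TLE6, and without the 2 libraries it was the 212th.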

How the data were processed

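RNA was measured in 3 T16 and 3 T0 libraries of pooled PMF, made from total RNA with a low-input cDNA kit. The authors trimmed the reads (Trim Galore 0.6.7, fastp 0.23.2) and quantified RefSeq transcripts of ARS-UCD1.3 with Salmon 1.9.0; they deposited estimated counts and TPM for each transcript, beside other values of transcript length. Transcripts were named by accession through a RefSeq table of another assembly, ARS-UCD2.0, used for names alone, and 50205 of 76123 matched. Unmatched transcripts, 9.74% to 10.9% of the counts of a library, were left out. Both values were added up by gene, and the counts then rounded to whole numbers.

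T16 was compared with T0 by the quasi-likelihood test of edgeR 4.0.16 (R 4.3.3) with TMM normalization, on the 14639 genes that reached 10 counts in 3 or more libraries, with Benjamini-Hochberg adjustment over all of them and an FDR of 0.05. Each SE given for edgeR was derived from this test, as the absolute log2 fold change over the square root of the F statistic. DESeq2 1.42.0 was the alternative tool. Ratios on the log2 scale used a pseudocount of 0.1 TPM. The procedure was tested on simulated data. The alternatives were a replicate block, other size factors and count filters, length offsets, an oocyte covariate, other oocyte sums, a pseudocount of 1 TPM, CPM in place of TPM and each library left out. The 8 genes, the lists and the tests were chosen with earlier results of these data known. All 8 genes are named, and from each list mainly the genes with the highest mean TPM, the relatives of each family and the genes at an unadjusted p below 0.05, the last named after their values were seen. Genes most alike are those with the smallest SD.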

Additional observations from a re-analysis of the deposited data

How the results depend on the processing

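No maternal effect gene was called in any of the 14 alternative fits. With the oocyte covariate the log2 fold change of NLRP5 was 0.19, on the other side of 0, and the other 7 genes kept their sign in every alternative. Over all genes, edgeR called 6, against 1027 with DESeq2, 11 without a count filter, 37 with the oocyte covariate, 0 without the 2 oocyte-poor libraries, and 0 to 3 with each library left out in turn. Same-numbered libraries did not deviate together (correlations of -0.45, -0.12 and -0.00469). The highest correlation, 0.438, joined the 2 oocyte-poor libraries, T16 replicate 2 and T0 replicate 1. The libraries differ widely in oocyte RNA, so this check cannot show whether same-numbered pools share animals. With the replicate block, edgeR called 0 genes, 1385 at an unadjusted p below 0.05, and all 8 maternal effect genes stayed below 0. The summed ratio to the oocyte genes was -0.63 with TMM-normalized CPM and 0.0007324 without KIT, and -0.344 to -0.155 with each library left out; for CPM the cause was not tested. In T16 replicate 2, 1 to 12 counts stand behind DPPA3, TLE6 and KPNA7, so their values there have wide counting error. The TPM of the 8 genes ranged 5.02-fold to 9.59-fold within T0. With a pseudocount of 1 TPM, the ratio of DPPA3 to the oocyte genes was 0.09 in place of -0.78.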
